A study of Mus musculus with 2 samples.

Results

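A set of 9 mouse genes that mark early stages of T cell development were followed through thymic cells sorted as regulatory T (Treg) lineage cells. The genes were Dntt, Rag1, Rag2, Cd8a, Cd8b1, Arpp21, Cd24a, Itm2a and Sox4, 9 of the 32285 genes in the deposited matrix, and all 9 symbols were found. The cells came from 2 individual C57BL/6 mice, with no age stated in the labels. One was Foxp3eGFP, a line in which eGFP reports Foxp3, the factor that defines Treg cells. The second, Foxp3eGFPxLta-/- and called Lta-/- here, had the same reporter and lacked Lta, which encodes the cytokine lymphotoxin alpha. Thymocytes were depleted of CD8+ and CD11c+ cells, sorted as CD4+CD8-CCR6-CD3e+ cells with CD25 (the product of Il2ra), eGFP or both, tagged with 1 antibody hashtag per genotype and run in 1 capture. With 1 mouse per genotype there are no replicates, so no p-value was computed. Intervals are 95% and cover counting error only, and cells of 1 mouse are not replicates of a condition.

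In the thymus, T cell precursors assemble their receptor genes by V(D)J recombination. The Rag1 and Rag2 proteins together cut the DNA, and Dntt (terminal deoxynucleotidyl transferase) adds bases at the joints. These genes are active first in precursors that carry neither CD4 nor CD8 while the receptor beta, gamma and delta genes are rearranged, and again in CD4 and CD8 double-positive cells while the alpha gene is rearranged. They are switched off when a working receptor is selected. Cd8a and Cd8b1 encode the chains of the CD8 coreceptor, and Arpp21 encodes an RNA-binding phosphoprotein that thymocytes express. Young CD4 cells that have just been selected still carry the surface glycoprotein CD24 (Cd24a), the membrane protein Itm2a and the transcription factor Sox4, and they lose them as they mature.

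The 250 bases just upstream of the RefSeq start sites are shown for 3 recombination genes and for 2 genes of young CD4 cells, because the results below separate these groups. The sequences come from RefSeq on GRCm38.p6, which matched 7 of the 9 symbols, and Cd24a and Cd8b1 had no entry. Capitals mark every E-box (CANNTG, the same on both strands), the letters that E proteins such as those of Tcf3 and Tcf12 bind. The windows lie at chr19:41029025-41029274 (Dntt, + strand), chr2:101649533-101649782 (Rag1, - strand), chr2:101624462-101624711 (Rag2, + strand), chrX:107403361-107403610 (Itm2a, - strand) and chr13:28953700-28953949 (Sox4, - strand).
Dntt: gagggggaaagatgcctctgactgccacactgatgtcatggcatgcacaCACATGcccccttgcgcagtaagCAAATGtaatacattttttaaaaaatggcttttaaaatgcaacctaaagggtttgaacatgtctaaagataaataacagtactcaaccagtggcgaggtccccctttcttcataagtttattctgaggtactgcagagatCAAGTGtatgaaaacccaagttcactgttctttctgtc
Rag1: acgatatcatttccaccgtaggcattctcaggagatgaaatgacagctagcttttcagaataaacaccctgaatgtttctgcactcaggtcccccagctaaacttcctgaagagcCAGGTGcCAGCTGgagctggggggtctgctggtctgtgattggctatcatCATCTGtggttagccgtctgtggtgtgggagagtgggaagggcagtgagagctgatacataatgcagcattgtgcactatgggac
Rag2: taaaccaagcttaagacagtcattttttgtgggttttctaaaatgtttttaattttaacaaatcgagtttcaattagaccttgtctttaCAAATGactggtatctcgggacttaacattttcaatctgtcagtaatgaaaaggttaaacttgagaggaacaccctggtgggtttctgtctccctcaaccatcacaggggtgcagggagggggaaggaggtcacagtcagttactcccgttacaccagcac
Itm2a: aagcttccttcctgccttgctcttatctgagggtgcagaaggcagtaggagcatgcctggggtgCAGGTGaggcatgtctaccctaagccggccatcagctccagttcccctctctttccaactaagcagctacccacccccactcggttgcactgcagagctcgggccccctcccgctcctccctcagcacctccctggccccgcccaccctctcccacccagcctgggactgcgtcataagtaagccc
Sox4: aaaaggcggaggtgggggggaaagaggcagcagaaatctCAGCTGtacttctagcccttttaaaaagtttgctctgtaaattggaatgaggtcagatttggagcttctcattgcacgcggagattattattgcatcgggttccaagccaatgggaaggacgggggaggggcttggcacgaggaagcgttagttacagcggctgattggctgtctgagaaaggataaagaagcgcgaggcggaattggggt
Dntt and Rag1 each had 3 E-boxes in this window, and Rag2, Itm2a and Sox4 had 1 each. An E-box was in 66.22% of all 32851 windows of this length in the table, so its presence does not set these genes apart. Rag1 also held the letters TGTGGT, read by Runx factors, at 2 places, and 14.05% of all windows held them on either strand. Rag1 and Rag2 lie close together on chromosome 2, and Cd8b1 and Cd8a lie close together on chromosome 6 (71322788 to 71337492 and 71373427 to 71379171).

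After filtering, 4638 of 4798 barcodes were kept, with 31129765 UMIs in all and a median of 5555 per cell. By hashtag, 2209 cells came from the Foxp3eGFP mouse, 2244 from the Lta-/- mouse, and 185 (3.99%) carried both hashtags. Levels below are summed UMIs of a gene scaled to 1e+06 UMIs of the same cells (CPM). Lta itself gave 509 UMIs (33.9 CPM) in the cells labelled Foxp3eGFP and 72 (5.12 CPM) in those labelled Lta-/-. All barcodes were distinct, and there is only 1 capture. Against the label of Treg lineage cells, Foxp3 was found in 20.5% and Il2ra in 22.4% of all kept cells. Of the 4270 cells outside both classes described below, 4058 had Cd3e and 2535 (59.4%) had Cd4.

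Over all kept cells, the recombination genes were rare and uneven between cells, while the young CD4 genes were widespread. Dntt gave 836 UMIs in 217 cells (26.9 CPM, 25.1 to 28.7), and 15 cells held 50% of them, with up to 45 UMIs in 1 cell. Rag1 gave 95 UMIs in 21 cells (3.05 CPM), 4 of which held 50% of the UMIs. Rag2 gave 23 UMIs in 12 cells, and Arpp21 gave 487 UMIs in 122 cells, 11 of which held 50%. For Dntt and Arpp21 a few cells with many UMIs stood above a larger number with exactly 1 UMI, 157 of 217 and 81 of 122 cells. Of the 21 cells with Rag1, 8 had exactly 1 UMI and 11 had 3 or more. Cd8b1 was spread thinly, with 1013 UMIs in 686 cells (14.8% of cells), 521 of which had exactly 1 UMI, although CD8 protein was sorted against. Cd8a gave 182 UMIs in 126 cells. Itm2a was found in 3073 cells (66.3%), Sox4 in 2250 (48.5%) and Cd24a in 468 (10.1%).

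Free RNA in the droplets can place a UMI in a cell that does not express the gene. A cluster led by Iglc2, Igha, Lyz2 and C1qb, genes of antibody-secreting cells and macrophages, had a Cd8b1 UMI in 6.98% of its 86 cells and an Itm2a UMI in 24.4%, at a median depth of 1577.5 UMIs. A cluster led by Gzmc, Klrd1 and Zbtb16 had Cd8b1 in 5.13% of its 39 cells, at a median of 9618 UMIs. Among cells outside both classes described below, 1 cell held 3583 of the 3597 Iglc2 UMIs. In the cluster of 86 cells, 6 cells had 3 or more Dntt UMIs. That cluster is thus not a control free of thymocytes, and the source of its Cd8b1 and Itm2a UMIs was not tested. A single Cd8b1 or Itm2a UMI is read as weak evidence of expression here. Rag1 was at 0 UMIs in 7 of the 11 clusters.

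To separate leftover recombining cells from young CD4 cells, 2 classes were made from 6 of the genes. Cells with at least 2 of Dntt, Rag1 and Cd8b1 formed the recombination class, and other cells with all 3 of Cd24a, Itm2a and Sox4 formed the young class. The levels of these 6 genes in the classes therefore describe the choice and are not results. Rag2, Cd8a, Arpp21, Foxp3, Il2ra and Ccr9 were not used. The recombination class had 54 cells (1.16%, 0.876 to 1.52), the young class 314 (6.77%, 6.06 to 7.53) and the rest 4270. Just inside and outside the limit, 41 cells had 2 of the 3 recombination genes and 803 had 1, while 13 had all 3. The classes were deeper than the rest, at medians of 9678.5 and 7579.5 UMIs against 5420.5, and 4 of 54 and 29 of 314 cells (7.41% and 9.24%) carried both hashtags against 3.56% of the rest. The part of depth and of doublets in the class differences was not tested.

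**Figure D1:**
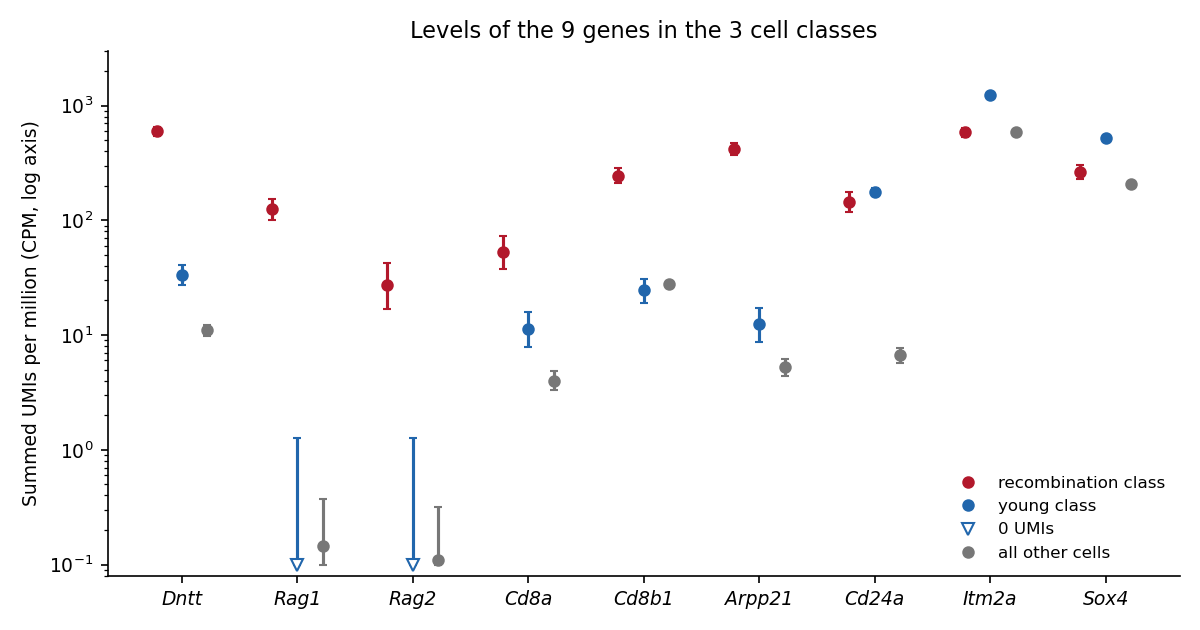
Level of each of the 9 genes (x axis) in CPM on a log axis, in the recombination class (54 cells, red), the young class (314 cells, blue) and all other cells (4270, grey). Points are levels, bars are exact 95% Poisson intervals, and open triangles at the foot mark 0 UMIs. Rag2, which the class rule did not use, was at 27.3 CPM in the recombination class and at 0 UMIs in the young class.

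The class rule used neither Rag2 nor Arpp21 nor Cd8a, and all 3 had their highest CPM in the recombination class. Arpp21 gave 307 UMIs there (420 CPM) against 36 in the young class (12.4 CPM) and 144 in the rest (5.24 CPM). Its log2 ratio of the recombination class over the young class was 5.08 (4.58 to 5.62). Rag2, the partner of Rag1 in the recombinase, gave 20 UMIs in 9 of the 54 cells and 0 in the young class. Its log2 ratio was 4.72 when 3 counts stand for the 0, and the lower limit of its interval was 4.29. Cd8a was at 53.3 CPM against 11.4, a log2 ratio of 2.23 (1.52 to 2.94), but without cells that had Mki67 or Top2a UMIs this was 1.25 (-0.10 to 2.42). Both of these members with 50 or more UMIs, Arpp21 and Cd8a, were at least 1.5-fold higher, beside 9.58% of the 6933 genes measured. Rag2, at 20 UMIs, was under that minimum, and Arpp21 passed it through the class in which it was high.

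No Rag2 UMI was found in the 314 young cells, which allows a share of up to 1.17% of such cells with a UMI. Rag1 was at 0 there too, but the rule took cells with Rag1 and either Dntt or Cd8b1 out of the young class, and 7 of the 19 Rag1 cells it took had all 3 young genes. In the rest, Rag1 gave 4 UMIs in 2 cells and Rag2 gave 3 UMIs in 3 cells. Of all Rag1 UMIs 95.8%, and of all Rag2 UMIs 87.0%, lay in the recombination class, against 52.2% for Dntt, 63.0% for Arpp21, 21.4% for Cd8a and 17.7% for Cd8b1. The shares of Rag1, Dntt and Cd8b1 follow in part from the rule. Most Cd8b1 UMIs (763 of 1013) lay in the rest, so Cd8b1 alone did not mark the class.

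The 13 cells with all of Dntt, Rag1 and Cd8b1 held 229 of the Dntt UMIs (1 to 45 per cell, median 16), 76 Rag1 UMIs (1 to 17, median 4) and 108 Cd8b1 UMIs (1 to 24, median 6). They also held Cd8a in 11, Arpp21 in 12 (10 UMIs at the median), Ptcra in 9, Ly6d in 10 and Mki67, a proliferation gene, in 10. Foxp3 gave 0 UMIs and Cd69 0 UMIs in these 13 cells, and Cd4 was found in 5. One Foxp3eGFP cell with 27816 UMIs had 34 Dntt, 17 Rag1, 24 Cd8b1, 7 Cd8a, 53 Arpp21 and 3 Cd4 UMIs. Another, with 13078 UMIs, had 16 Dntt, 16 Rag1, 7 Rag2, 5 Cd8b1 and 27 Arpp21 UMIs and none of Cd4. The 13 cells were 8 Foxp3eGFP, 4 Lta-/- and 1 with both hashtags.

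The recombination class was a mixture, and its label as leftover double-positive cells did not hold for all of it. Divided by Rag1 after the values were seen, 19 cells had Rag1 and 35 did not. The 35 without Rag1 had a median of 1 Dntt and 1 Cd8b1 UMI, with Itm2a in 31, Cd4 in 25, Ccr7 in 23 and Klf2 in 28. The 19 with Rag1 had a median of 16 Dntt and 10 Arpp21 UMIs, with Ptcra in 13, Ly6d in 16, Cd4 in 6 and Itm2a in 9. Each of Cd4, Ccr7 and Klf2 was thus found in most cells of the first kind, but cells with all 3 were not counted. Single cells of this kind had up to 32 Dntt and 8 Cd8b1 UMIs. Ccr9 was found in 21 of these 35 cells (60%) against 23.1% of the rest. Itm2a was at 973 against 590 CPM, and median depth was 8776 against 5420.5 UMIs. In cells of the second kind only Dntt and Arpp21 were at many UMIs at the median. Rag1 had a median of 3 UMIs there and Cd8b1 of 2, and Rag2 was found in 6 of the 19.

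Another border was 3 or more Dntt UMIs, a split that was also chosen after seeing the values. A cell with 2 Dntt, 6 Rag1 and 15 Cd8b1 UMIs, among 3718 UMIs in all, fell outside it. The 40 cells with 3 or more Dntt UMIs held 639 of the 836 UMIs (76.4%), and 20 of the 40 were in the recombination class, 4 in the young class and 16 in the rest. In these 40 Dntt-high cells Arpp21 was found in 80%, Ly6d in 75.0%, Cd24a in 72.5%, Sox4 in 90%, Rag1 in 40.0% and Rag2 in 27.5%. Ptcra, which encodes the surrogate alpha chain used before the alpha gene is rearranged, was found in 47.5%, against 0.430% of the 4421 cells without Dntt. Trac, the constant part of the receptor alpha chain, was found in 27.5% against 93.2%, and Cd5, which rises after selection, in 30.0% against 81.6%. Cd4 was found in 17.5% against 59.8%, although the Dntt-high cells were deeper, at a median of 14339 UMIs against 5474.

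Receptor genes of the gamma-delta loci were also frequent in the Dntt-high cells. Trdc was found in 75.0% and Tcrg-C1 in 55.0%, against 4.95% and 1.47% of cells without Dntt. Notch1, a receptor that drives early T cell development, was found in 75.0% against 19.7%, and its target Hes1 in 32.5% against 0.317%. Sox13, a gamma-delta lineage factor, was in 7.5% (3 cells) against 0.995%. Cd3e was found in 33 of the 40. Foxp3 was found in 1 of them, Il2ra in 18 and Mki67 in 22.

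Of the 40 Dntt-high cells, 5 had both Cd4 and Cd8b1, 4 of them with Cd8a too, and 21 had none of Cd4, Cd8a and Cd8b1. Transcripts of both coreceptors, which define double-positive cells, were thus detected in few of them, and they are called Dntt-high cells below. The 15 that had Cd8b1 and the 25 that did not differed in other genes as well as in depth (medians 28974 and 12235 UMIs). Rag1 was found in 11 of 15 against 5 of 25, Cd8a in 12 against 2, and Mki67 in 14 against 8. Hes1 was found in 2 of 15 against 11 of 25, at 10.9 CPM (2.96 to 27.8) against 154 CPM (115 to 203 by counting error). Il2ra was found in 5 of 15 against 13 of 25, at 57.0 CPM against 142, and Arpp21 in 15 against 17, at 692 against 381 CPM. Itm2a was low in both, at 62.4 and 96.8 CPM, where the whole library had 649.

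The 177 cells with 1 or 2 Dntt UMIs did not resemble the Dntt-high cells in most of these genes. They had Itm2a in 90.4%, Cd4 in 78.5%, Trac in 96.0%, Cd5 in 81.9% and Ccr9 in 50.8%, at a median of 7196 UMIs. Their shares of Ptcra (1.13%), Rag1 (1.13%) and Arpp21 (4.52%) were far below those of the Dntt-high cells. Itm2a stood at 1150 CPM in them against 634 in cells with no Dntt and 78.6 in Dntt-high cells.

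**Figure D2:**
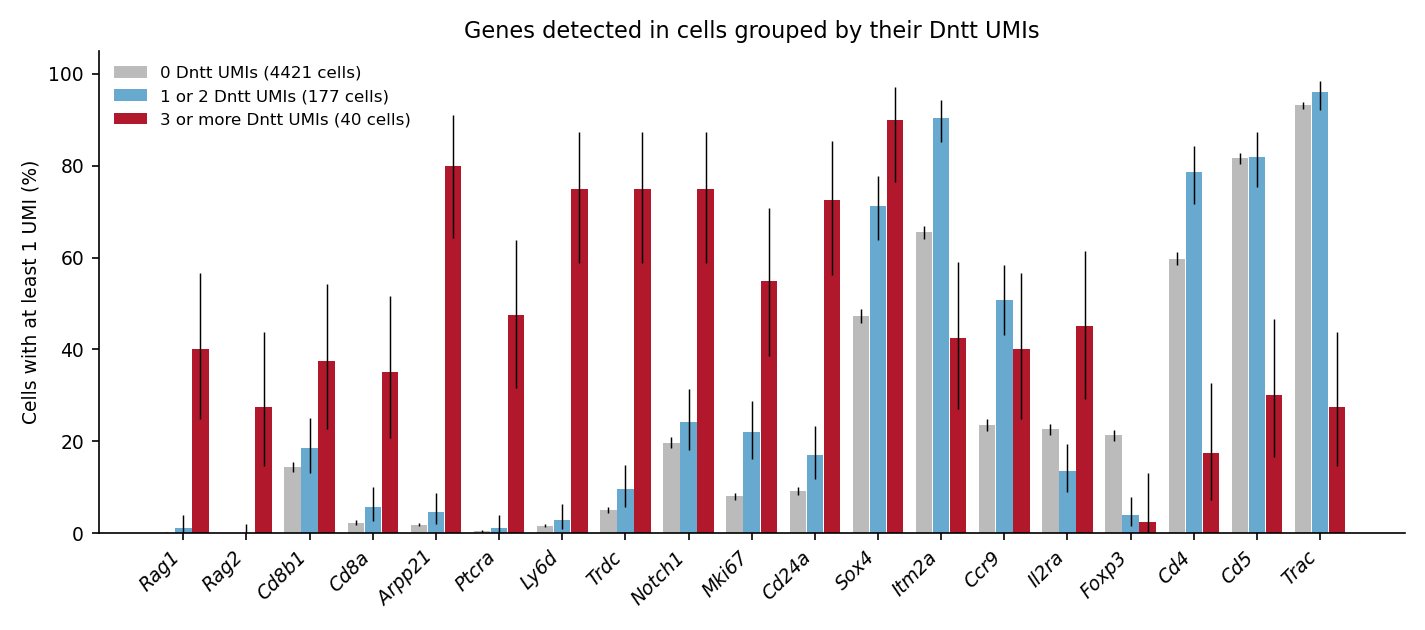
Share of cells with at least 1 UMI (y axis, percent) of each gene (x axis) in cells with 0 (4421 cells, grey), 1 or 2 (177, blue) and 3 or more Dntt UMIs (40, red). Bars start at 0 and lines are exact 95% binomial intervals. Trac, Cd4 and Cd5 are high in the first and second group and low in the third, where Arpp21, Ly6d, Trdc and Notch1 are high.

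Compared gene by gene with the young class, the recombination class was higher in genes of earlier thymocytes and of cell division, and lower in genes induced by receptor signals. After Arpp21, the highest by rule were Ly6d (3.63 on the log2 scale, 3.28 to 3.99), Ighm (3.18), Gzma (2.99), Tcrg-C2 (2.93), Aqp11 (2.93), Trdc (2.71), Thy1 (2.50), Ccnb2 (2.41) and Plac8 (2.36). Ighm encodes the constant part of the IgM heavy chain, Thy1 is the surface antigen of thymocytes, and Ccnb2 is a mitotic cyclin. One cell held 91 of the 289 Gzma UMIs (granzyme A) in the class. At 26.3% of 6933 genes past 1.5-fold in either direction, these classes differed widely, and single genes are read against that share.

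The list of double-positive thymocyte genes had 7 of 11 measured members higher and 1 lower, with a median log2 ratio of 0.75 beside -0.07 over all genes. For this and the lists below, 9.58% of the 6933 genes measured were higher and 16.7% lower. The highest was Endou (96 against 3 UMIs, log2 6.99), an endoribonuclease gene, followed by Ptcra (57 against 7, log2 5.01). Bcl2l1, a survival gene of double-positive cells, was the member that was lower, at -1.08. All 12 proliferation genes were higher, among them Mki67 (1.33), Rrm2 (2.09) and Pclaf (1.89), and 40.7% of the class had a Mki67 or Top2a UMI against 17.5% of the young class. Of 8 measured recombination and end-joining genes, 4 were higher and 1 lower. Lig4, the ligase that seals the joints, was at 1.70 on 23 and 28 UMIs, and Xrcc6, which encodes the Ku70 end-binding protein, was at 2.30. The other 2 that were higher were Hmgb1 (1.32) and Hmgb2 (1.78), chromatin proteins that also serve dividing cells, and Prkdc was lower at -0.79. Among 12 regulators of Rag and CD8 genes, Tcf12 was higher (0.75), Zbtb7b, the CD4 lineage factor, was lower (-0.75), and 10 stayed within 1.5-fold, among them Tcf3 at 0.27, Runx1 at 0.36 and Satb1 at -0.12.

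Genes lower in the recombination class than in the young class were led by Lyz2, Xcl1 (-3.95), Nr4a3 (-3.49), Nr4a1 (-3.43), Rgs16 (-3.08), Nrgn, Eno3, Cd200, Tnfrsf9 (-2.38) and Arhgap20. Lyz2, a macrophage gene, rested on 1 young cell with 263 of 265 UMIs. Nr4a1 and Nr4a3 are nuclear receptors induced at once by receptor signals, and Tnfrsf9 is the costimulatory receptor 4-1BB. Of the strong receptor signal list, 9 of 11 members were lower and 0 higher, beside 16.7% of all genes lower. Of the Treg core list, 7 of 8 were lower, among them Ikzf2 (-1.95), Tnfrsf18 (-1.43) and Tnfrsf4 (-1.44). Among these lower genes, all of the signal list but Cd5, and Ctla4, Ikzf4 and Gpr83, passed the minimum only through the young class. Cd4 was at 75.2 CPM against 172 in the young class. Markers of gamma-delta T cells were higher in 3 of 3 measured, and the summed level of the 5-gene list was 287 CPM against 52.4 in the young class and 39.4 in the rest, with Cd163l1 at 0 in both classes. Of 6 natural killer or innate lymphoid markers, Ncr1, Klrb1c and Klrd1 were at 0 in both. Tyrobp gave 1 against 35 UMIs and Fcer1g 0 against 22. Gzma, the only member with 50 or more UMIs, was higher (2.99), and the list summed to 396 against 69.3 CPM. B cell markers summed to 8 UMIs in the recombination class.

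Against the rest, the young class was lower in 11 of 14 maturation and egress genes, while strong receptor signal genes divided, with 4 of 12 higher and 1 lower. The highest genes by rule were Xcl1 (1.93, 1.78 to 2.07), Gadd45b (1.85), Trib1 (1.75), Tnfrsf9 (1.74), Basp1 (1.68), Bcl2l11 (1.65), Marcksl1 (1.60), Eno3 (1.58), Nr4a1 (1.53) and Dusp5 (1.48). Xcl1 encodes a chemokine that attracts cross-presenting dendritic cells, and Bcl2l11 encodes Bim, the death protein of negative selection. The lowest included Rgs1 (-3.47), Ly6a (-2.23), Ifit3 (-2.17), Foxp3 (-2.10), BE692007 (-2.09) and S1pr1 (-2.08), the receptor for exit from the thymus. Iglc2, Igha, Jchain and Igkc were lower still, and 1 or 2 cells of the rest held most of their UMIs. Over all 10763 genes, 11.1% were at least 1.5-fold higher and 10.6% lower. Scaling by the median of ratios moved every gene by -0.11 and changed those counts from 1192 higher and 1145 lower to 780 and 1459. Under it Tnfrsf4, Bach2 and Mns1, named below as higher, came within 1.5-fold, and Il7r and Cd52 passed it as lower.

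The maturation and egress genes that were lower included Ms4a6b (-1.71), Gimap3 (-1.74) and Klf2 (-0.94). Ccr7 (-0.33), Il7r (-0.53) and Cd52 (-0.55) were within 1.5-fold. Of 12 strong-signal genes, 4 were higher (Nr4a1, Nr4a3, Nfkbid and Bcl2l11), and Id3 was lower (-0.85). The other 7 did not pass 1.5-fold, among them Egr1 (-0.31), Egr2 (-0.21), Egr3 (0.32), Cd69 (0.18) and Cd5 (0.12). The Treg core list divided, with Ikzf2 (0.88), Tnfrsf4 (0.60) and Tnfrsf9 higher and 6 of 11 lower, among them Ctla4 (-1.65), Nrp1 (-2.35) and Itgae (-2.81). Of 10 immature CD4 genes, Ccr9 (0.79, 0.65 to 0.94) and Bach2 (0.66) were higher and Id3 was lower. Of 9 measured double-positive thymocyte genes, 4 were higher (Ly6d 1.89, Aqp11 1.60, Bcl2l1 1.03 and Mns1 0.62) and 0 lower. None of the 12 proliferation genes and none of the 11 recombination and end-joining genes passed 1.5-fold. The macrophage gene Lyz2 (1.10) again rested on 1 young cell, and Gzma (3.61) had 109 of its 144 young UMIs in 1 cell.

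Among the members outside the rule, Arpp21 and Cd8a had 50 or more UMIs and both were higher, where 11.1% of 10763 genes were. Cd8a was at 11.4 CPM in the young class against 4.0 in the rest (log2 1.51, 0.90 to 2.08), and after thinning each cell to 3000 UMIs it was found in 3.82% against 1.11%. Arpp21 was at 12.4 against 5.24 CPM (1.24, 0.67 to 1.78). That ratio was 0.57 (-0.44 to 1.45) without cells that had Mki67 or Top2a UMIs, and -0.35 (-1.60 to 0.68) when the Dntt-high cells replaced the recombination class. Cd8b1 did not stand out, at 24.5 against 27.7 CPM. Rag2 had 3 UMIs in these cells in all and could not be compared. Dntt was found in 25 of the 314 young cells, and 4 of these were Dntt-high. The rule had put another 6 cells with all 3 young genes and 2 recombination genes, and 6 with all 3 of both, in the recombination class.

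Clustering without the 9 genes placed 24 of the 54 recombination cells and 24 of the 314 young cells in cluster 9, and the other 30 recombination cells in 8 other clusters. Cluster 9, led by the mitotic genes Hmmr, Nusap1, Ube2c and Plk1 and by histone genes, had 304 cells at a median of 14622 UMIs. It held 73.6% of Dntt, 83.2% of Rag1, 91.3% of Rag2 and 76.4% of Arpp21 UMIs, and 31 of the 40 Dntt-high cells. Dntt was nevertheless found in 20.7% of its cells and Rag1 in 4.93%, so most cells of this cluster had neither. Another 6 Dntt-high cells lay in the cluster of antibody-secreting and macrophage genes. With a finer resolution of 1.0, a cluster of 72 cells held 73.6% of the Dntt UMIs at 696 CPM, 91.6% of Rag1, and Arpp21 at 428 CPM. With 20 principal components, a cluster of 71 cells held 72.4% of Dntt.

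The young genes had their highest levels in other clusters. Cluster 1, led by Lad1, Trib1, Tnfrsf9 and Xcl1, held 40.3% of Cd24a UMIs (75.7 CPM) and 153 of the 314 young cells, which were 29.7% of its cells. Cluster 4, led by Chl1 and Id2 and highest in Ccr9 (473 CPM), had the highest Itm2a level at 2004 CPM, above the 1289 CPM of cluster 1, and held 49 young cells. Sox4 was highest in cluster 0 (471 CPM, led by Nrp2 and Tubb2b) and cluster 1 (468 CPM), levels whose intervals overlap. Cluster 7, led by Ccl5, Cxcr3 and S100a4, had the lowest Itm2a (107 CPM) and Sox4 (32.5 CPM) of the 11, with Cd24a at 3.41 CPM. Cluster 5, led by Ifit3 and S1pr1, held 6 young cells among 1100.

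**Figure D3:**
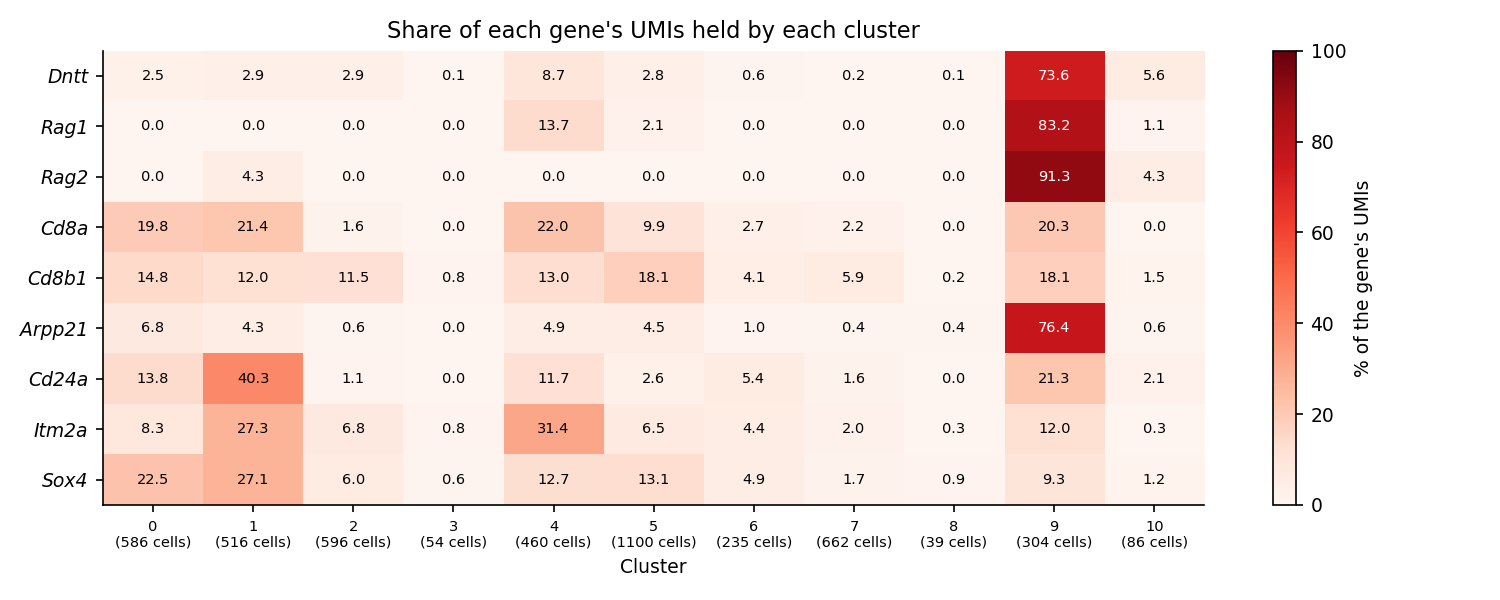
Percent of each gene's UMIs (rows, the 9 genes) held by each of 11 clusters (columns, with cell numbers), with darker red for a larger share. Cluster 9 held 73.6% to 91.3% of Dntt, Rag1, Rag2 and Arpp21, while Cd24a and Sox4 had their largest share in cluster 1 (40.3% and 27.1%), Itm2a in cluster 4 (31.4%), and Cd8b1 at most 18.1% in any cluster.

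By Pearson correlation of log2(CPM + 10) over the 11 clusters, a description without a test, the genes most like Dntt were Nt5dc2 (0.973), Ly6d (0.969) and Cryl1 (0.949). Those most like Rag1 were Aunip, Esco2 and Stil, those most like Rag2 were Nt5dc2, Hist1h1b and Espl1, and those most like Arpp21 were Ncapd2, Arhgap19 and Hist1h3e. Clusters share 1 library and differ in depth, and cluster 9 held most UMIs of these 4 genes. Klf10, Ddx1 and Cnot11 came first for Cd24a (0.927 at the most), Entr1, Tuba4a and Ndrg1 for Itm2a (0.933) and Polb, Copg2 and Gpr65 for Sox4 (0.884). For Cd8a they were Tpgs2, Zcchc12 and Mtf2, and for Cd8b1 Stard3, Cby1 and Arid2.

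Foxp3 and Il2ra were genes behind the sort, and Ccr9 was not. Foxp3 was found less often in both classes than in the rest and Ccr9 more often, while the intervals of Il2ra overlapped. Foxp3 was found in 2 of 54 recombination cells (3.70%, 0.452 to 12.7), in 18 of 314 young cells (5.73%, 3.43 to 8.91) and in 930 of 4270 others (21.8%, 20.5 to 23.0). After thinning to 3000 UMIs these were 0 of 54, which allows up to 6.60%, then 3.82% and 14.4%. Il2ra was found in 27.8%, 25.5% and 22.2%, and after thinning in 16.7%, 15% and 16.8%. Ccr9, a chemokine receptor that guides thymocytes, was found in 63.0%, 40.4% and 23.1%, and after thinning in 29.6% (18.0 to 43.6), 26.8% (21.9 to 32.0) and 16.4% (15.2 to 17.6). Neither Foxp3 nor Il2ra gave a UMI in 39 of 54 recombination cells, 226 of 314 young cells and 2808 of 4270 others. The sort was on protein, and a missing UMI does not show that the protein was missing.

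Outside the recombination class, cells with more of the young genes had Foxp3 less often and Ccr9 more often. After thinning, Foxp3 was found in 24.0% of cells with none of Cd24a, Itm2a and Sox4, in 14.8% with 1, in 8.20% with 2 and in 3.82% with all 3. Ccr9 went the other way, from 6.04% to 14.4%, 24.6% and 26.8%, the last pair within their intervals. Il2ra went from 23.4% to 17.3% and 12.2% and then stood at 15% in the young class. The number of young genes was counted at full depth, so its groups still differ in depth, from a median of 4585.5 to 7579.5 UMIs. Taken singly at equal depth, cells with Cd24a had Foxp3 in 3.88% against 14.0% without, cells with Itm2a in 8.69% against 18.8%, and cells with Sox4 in 9.19% against 15.9%. Cells with Dntt had Foxp3 in 1.75% (2 of 114) against 13.8%. Cells with Arpp21 had it in 10.5% (4.66 to 19.7) against 13.5%, shares that could not be told apart at this depth.

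**Figure D4:**
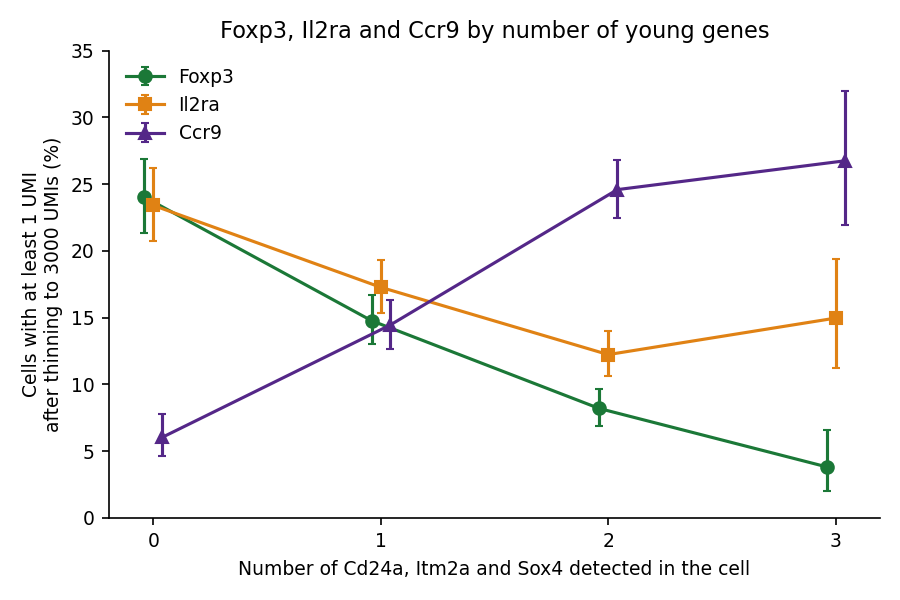
Percent of cells with a UMI after thinning each cell to 3000 UMIs (y axis) by the number of Cd24a, Itm2a and Sox4 detected in the cell (x axis), for Foxp3, Il2ra and Ccr9, with exact 95% binomial intervals and without the recombination class. Foxp3 goes from 24.0% down to 3.82% and Ccr9 from 6.04% up to 26.8%.

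Within the young class, Il2ra was found less often in cells with Ccr9 than in cells without, in a division chosen after the values were seen. The 127 young cells with Ccr9 had Il2ra in 14.2%, and the 187 without had it in 33.2%, at medians of 6647 and 8118 UMIs. After thinning these shares were 6.30% and 20.9%. Tnfrsf9 was at 402 CPM with Ccr9 and 594 without, Xcl1 at 84.3 and 256, and Gadd45b at 115 and 219, while Bcl2l11 went the other way at 300 and 197. Itm2a was at 1477 and 1066 CPM and Cd8a at 14.4 and 9.51, whereas Cd24a differed little at 167 and 183. Of the cells with Ccr9, 43 lay in cluster 4 and 40 in cluster 1, and of those without, 6 and 113.

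Set out by the gate transcripts, most of the 9 genes were lower in cells with Foxp3. Cells were divided into 524 with Foxp3 only, 426 with both Foxp3 and Il2ra, 615 with Il2ra only and 3073 with neither. Dntt was at 1.70, 8.16, 73.0 and 23.4 CPM in these groups, and its 24 UMIs in cells with both genes became 1 without the recombination class. Rag1 was at 0, 0.340, 7.34 and 2.97 CPM, and Rag2 at 0, 0, 1.15 and 0.862. Arpp21 was at 4.09, 7.14, 42.2 and 12.9 CPM. Cd24a was at 6.13, 9.18, 46.4 and 26.6 CPM, Itm2a at 280, 299, 709 and 737, and Sox4 at 172, 117, 247 and 262. Cd8b1 differed least, at 23.8, 30.3, 26.9 and 35.3 CPM, and Cd8a was at 2.72, 3.40, 5.28 and 6.75.

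Of the 6 members with 50 or more UMIs in Il2ra only and Foxp3 only cells, 4 were at least 1.5-fold higher in Il2ra only cells (Dntt, Arpp21, Cd24a and Itm2a) and 0 lower, where 12.0% of 8468 genes were higher and 7.43% lower. Dntt (318 against 5 UMIs), Arpp21 (184 against 12) and Cd24a (202 against 18) passed the minimum only through the group in which they were high, here and against cells with both transcripts, so the counts of members are a description. The log2 ratios were 5.42 (4.18 to 7.05) for Dntt, 3.37 for Arpp21, 2.92 (2.22 to 3.70) for Cd24a, 1.34 (1.23 to 1.45) for Itm2a, 0.52 for Sox4 and 0.17 for Cd8b1. Without the recombination class Dntt stood at 4.50 and Arpp21 at 1.83. Without the Dntt-high cells Dntt stood at 1.80, Arpp21 turned to -1.24 (-2.83 to 0.22), and the members that passed numbered 2, while Cd24a stayed at 2.48 and Itm2a at 1.43. Against cells with both transcripts, 5 of 6 members were higher in Il2ra only cells (Sox4 too, at 1.08) and 0 lower, where 9.66% of 8438 genes were higher and 4.88% lower. Between cells with neither transcript and those with Foxp3 only, 7 of 8 members were higher and 0 lower, beside 13.3% and 7.17% of 10414 genes. Rag1 (62 against 0 UMIs) and Cd8a (141 against 8), like Dntt, Arpp21 and Cd24a, passed the minimum there only through the cells with neither. Against cells with both, 7 of 8 were higher and 0 lower in cells with neither, beside 13.6% and 7.13% of 10413 genes. Dntt, Rag1, Cd8a, Arpp21 and Cd24a again passed the minimum only through the cells with neither, so these counts too are a description. These 4 comparisons share groups of cells and are not independent of each other. Between neither and Foxp3 only cells Itm2a was at 1.40 and Cd24a at 2.12, and 20% of cells with neither had Ccr9 after thinning against 11.1% with Foxp3 only.

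Between the mice, 1 of each genotype, Dntt, Rag1 and Arpp21 were lower in Lta-/- cells and no member was higher by 1.5-fold. Dntt gave 246 UMIs in 95 of 2244 Lta-/- cells (17.5 CPM) and 572 in 112 of 2209 Foxp3eGFP cells (38.1 CPM), a log2 ratio of -1.12 (-1.34 to -0.90). Rag1 gave 17 against 74 UMIs (-2.03, -2.88 to -1.25), Rag2 7 against 16, and Arpp21 137 against 339 (-1.21, -1.51 to -0.92). Cd8b1 (0.05), Cd8a (0.24) and Sox4 (-0.08) were within 1.5-fold, as was Cd24a at -0.29 (-0.50 to -0.08). Itm2a was at 746 against 562 CPM (0.41, 0.37 to 0.45), also within 1.5-fold. Of the 8 members with 50 or more UMIs, 3 were at least 1.5-fold lower (Dntt, Rag1 and Arpp21) and 0 higher, where 2.83% of 10709 genes were lower and 2.41% higher. Rag1 passed that minimum only through the Foxp3eGFP cells, in which it was high, so the count is a description.

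Dntt-high cells numbered 12 (0.535%) among Lta-/- and 27 (1.22%) among Foxp3eGFP cells, a log2 ratio of shares of -1.19 (-2.31 to -0.16). These cells were chosen by Dntt itself, after the values were seen, and held 76.4% of its UMIs, so the values without them describe where the UMIs lay and test nothing. Without them, Dntt was at 6.50 against 6.68 CPM (-0.04, -0.47 to 0.39), Arpp21 at 0.24 (-0.35 to 0.82) and Rag1 at -0.42 on 5 and 7 UMIs. Cells with 1 or 2 Dntt UMIs made up 3.70% and 3.85% of the genotypes. Of 11 measured double-positive thymocyte genes, 4 were lower in Lta-/- cells (Ptcra at -2.10 on 14 against 64 UMIs, Ly6d at -1.36, Endou at -0.87 and Aqp11 at -0.64) and 0 higher, with a list median of -0.01, beside 2.83% of all genes lower. Of the gamma-delta markers, Tcrg-C1 (-1.53) and Tcrg-C2 (-1.32) were lower, and Trdc (-0.34) and Sox13 (-0.09) were within 1.5-fold. Of 12 proliferation genes, 7 were lower. The part of the cell cycle in the difference was not tested, but without cells that had Mki67 or Top2a UMIs the Dntt ratio was -0.45 and that of Arpp21 -0.29. With each cell thinned to 3000 UMIs Dntt was at -0.70.

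By class, 18 Lta-/- cells (0.802%, 0.476 to 1.26) and 32 Foxp3eGFP cells (1.45%, 0.993 to 2.04) were in the recombination class, a log2 ratio of -0.85 (-1.77 to 0.02). The young class held 129 Lta-/- cells (5.75%) and 156 Foxp3eGFP cells (7.06%), a log2 ratio of -0.30 (-0.64 to 0.05). When the classes were called at an equal depth of 3000 UMIs the young share was 2.93% against 2.13%, a ratio of 0.46 (-0.13 to 1.05), so its direction changed with depth. Within the young class, Dntt was at 6.64 against 62.8 CPM, on 7 UMIs in 5 cells and 90 in 20, and 1 cell alone held 32 of these UMIs. Cd8b1 there was at 38.0 against 17.4 CPM (1.12, 0.37 to 1.90), and Il2ra at 49.4 against 78.1 CPM (-0.66).

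The Itm2a ratio of Lta-/- over Foxp3eGFP cells was 0.39 (0.35 to 0.43) without the Dntt-high cells. Within clusters it was above 0 in 8 of 11 (the highest, 2.39 in cluster 8, on 44 against 8 UMIs), at 0.52 (0.44 to 0.59) in cluster 4 with 2321 against 1623 CPM, 0.41 (0.33 to 0.48) in cluster 1, 0.62 (0.50 to 0.74) in cluster 9 and 0.34 in cluster 5. It was at 0.01 in cluster 7 and -0.08 in cluster 6, and below 0 in cluster 3 (-0.66, 61 against 91 UMIs) and cluster 10 (-0.36, 25 against 30 UMIs). Cluster 4, the highest in Itm2a, made up 12.3% of Lta-/- and 7.83% of Foxp3eGFP cells. In the young class Itm2a was at 0.28 (0.18 to 0.38) and Sox4 at 0.34 (0.18 to 0.50), and in the rest at 0.44 and -0.13.

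**Figure D5:**
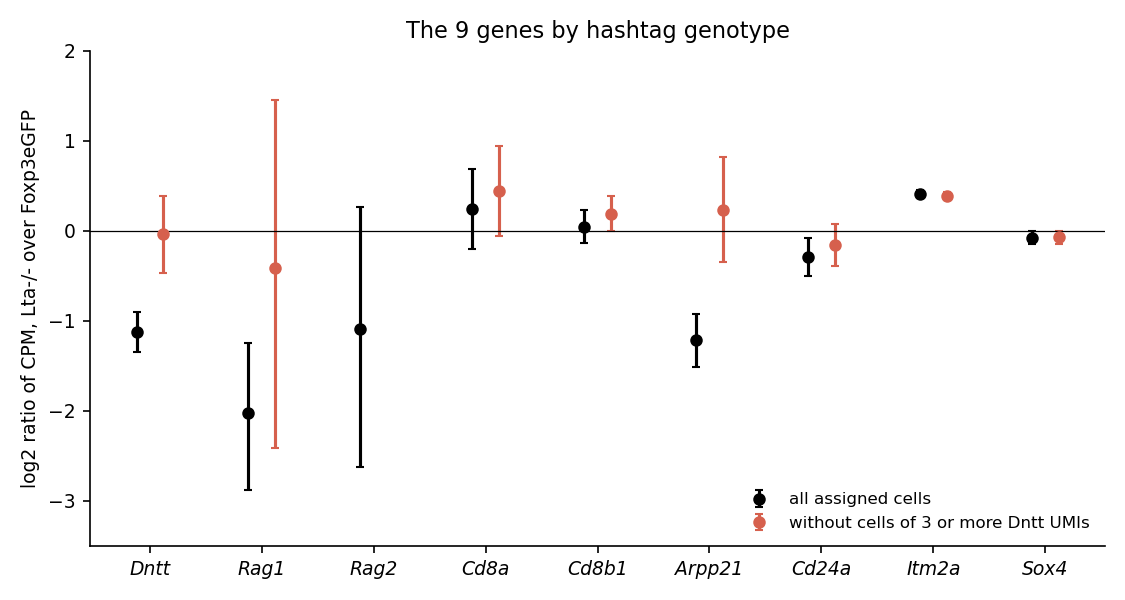
log2 ratio of CPM of Lta-/- over Foxp3eGFP cells (y axis) for each of the 9 genes (x axis), over all assigned cells (black) and without cells of 3 or more Dntt UMIs, which were chosen by Dntt itself (red), with 95% counting intervals. 1 mouse per genotype. Dntt goes from -1.12 to -0.04 and Arpp21 from -1.21 to 0.24, while Itm2a stays at 0.41 and 0.39; Rag2 has no red point because 0 and 1 UMIs were left.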

How the data were processed

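Droplet single-cell RNA sequencing of 1 capture of 2 hashtagged thymic samples was analysed. The values are raw UMI counts per gene and barcode, as deposited by the authors. The submitters' processing notes name Cell Ranger 6.0.1 and, as builds, mm10 and GRCm38. The number of unused sample columns was 0. Their annotation release is not given in the sources used here.

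Filtering required 500 genes or more and a mitochondrial share of UMIs up to 10%. Genotype came from the hashtag with 10 or more counts and a share of 80% or more. The deposited hashtag feature names gave the genotypes, since their numbering differs from that in the labels' protocols. No doublet caller was run, and from the 185 cells with both hashtags about 185 more within a genotype are expected and remain.

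UMIs were summed per class and scaled to 1e+06 (CPM). Levels have exact Poisson, shares Clopper-Pearson and ratios exact conditional binomial intervals, at 95%, for counting error only, and a 0 was replaced by 3 counts in a ratio. A gene was called at 1.5-fold with at least 50 UMIs over both classes. Cells were thinned to 3000 UMIs to compare shares, which left out 313 shallower cells, all in the rest. Clusters used 2000 variable genes without the 9 members, Foxp3, Il2ra, Ccr9, Lta, Ltb, sex-linked markers or V(D)J segments, with 30 components, 15 neighbours and Leiden resolution 0.6. Genes named per class comparison were the 10 largest ratios each way with at least 100 UMIs and 50 CPM in the higher class, without the 6 class genes, sex-linked markers, V(D)J segments, and mitochondrial, ribosomal protein, Gm and Rik genes. Members of the lists and the 3 genes most like each member were named too. Notch1 and Hes1, the divisions by Dntt, Rag1, Cd8b1 and Ccr9, and which genes are shown in them were chosen after the values were seen. Members and lists were chosen with earlier results of these data known. The ratio interval was tested on simulated data. Software was Python 3.11.15, numpy 2.4.6, scipy 1.17.1, pandas 2.3.3, scanpy 1.11.5, igraph 0.11.9 and matplotlib 3.10.9.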

Additional observations from a re-analysis of the deposited data

How the results depend on the processing

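Each result was recomputed under other cell filters, class definitions, scalings, weightings and hashtag thresholds. Both cell filters, the hashtag threshold of 90% and the removal of cells with both hashtags left every class share, gene count and young-class percentage within its limit (the main 95% interval, or 1.5 times for a count). Defining the class by Dntt alone and leaving out Dntt-high cells were alternatives added after seeing the data.

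The recombination class was 0.280% of cells when all 3 genes were required, 0.367% when 2 UMIs were required per gene, 0.578% when called after thinning and 0.862% as cells with 3 or more Dntt UMIs. The young class was 1.70% at 2 UMIs per gene and 2.45% after thinning. Genes higher and lower in the recombination than the young class (664 and 1157) were 1155 and 1934 with all 3 genes required, 432 and 600 with thinned classes, 1991 and 2271 without a UMI minimum, with 762 lower at 2 UMIs per gene and 1744 lower for the Dntt-high cells. Genes higher in the young class than the rest (1192) were 1893 at 2 UMIs per gene (1884 lower), 1868 with thinned classes, 780 by median of ratios and 3438 without a minimum. Between genotypes (258 and 303), 1219 and 1097 passed without a minimum, and 154 were lower without proliferating cells.

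The recombination share ratio between genotypes was -2.14 at 2 UMIs per gene. The young ratio turned from -0.30 to 0.46 after thinning, and both of these young ratios had intervals that hold 0. Young cells with Foxp3 were 2.53% at 2 UMIs per gene and 1.89% in thinned classes, and those with Il2ra were 31.6% at 2 UMIs per gene. Members higher in Il2ra only than in Foxp3 only cells numbered 2 rather than 4 after thinning, and 2 without the Dntt-high cells.

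Values of single genes turned direction in 5 cases: Rag1 between genotypes without the recombination class (0.49, on 4 against 0 UMIs), Cd8a in Il2ra only over Foxp3 only cells after thinning (-1.45), Arpp21 in the young class over the rest with the Dntt definition (-0.35), and Arpp21 without Dntt-high cells between genotypes (0.24) and in Il2ra only over Foxp3 only cells (-1.24). The cause was not tested. With 1 mouse per genotype no replicate could be left out, and no paired analysis was possible because there is 1 mouse per genotype, both in 1 capture. Totals of 95 Rag1 and 23 Rag2 UMIs limit what can be said of these genes.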
